A study of Mus musculus with 56 samples.

Results

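H2A.Z, a variant of histone H2A that replaces it at promoters and enhancers, was measured at 9 endoderm transcription factor genes in mouse embryonic stem cells with induced Rnaseh1. The genes were chosen by name: Foxa1, Foxa2, Foxa3, Sox17, Sox7, Gata4, Gata6, Hhex and Onecut1, of 21887 protein-coding genes. Earlier results of these data were known when they were chosen. A peak was taken to lie at a gene if it overlapped the gene body, or the 10 kb on either side of it, by at least 1 base. By this rule the 9 genes held 24 of the 61420 H2A.Z peaks.

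The endoderm is the inner germ layer, which gives rise to the lining of the gut, the liver and the pancreas, and an earlier extraembryonic layer, the primitive endoderm, forms the yolk sac. Foxa1, Foxa2 and Foxa3 encode forkhead proteins that can open closed chromatin, and Gata4 and Gata6 encode zinc finger proteins that act with them. Sox17 and Sox7 encode SOX proteins of one subgroup, Hhex a homeobox protein of anterior endoderm and liver, and Onecut1 the liver and pancreas factor HNF6.

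CUT&Tag directs a transposase with an antibody, here to H2A.Z, and sequences the DNA that it tags. All cells were of the line RHKI(E14Tg2a), which carries an HA-Rnaseh1 knock-in. Doxycycline was given at 500 ng/ml for 48 hours for 4 libraries, and the 4 control libraries came from the same line without it. Both groups grew in medium with LIF, 2% FBS, 3 µM of the GSK3 inhibitor CHIR-99021 and 1 µM of the MEK inhibitor PD0325901. RNase H1 cuts the RNA of RNA:DNA hybrids, so the comparison is taken to ask where H2A.Z changes when R-loops are reduced. No measure of R-loops was used here, so their loss was not checked. The labels do not say whether the line is a single clone, and an effect of doxycycline itself cannot be told apart from that of Rnaseh1 here. The deposited data are 1 set of peaks and 2 lists that the authors took from it, 1 of lower and 1 of higher H2A.Z. The list names alone give the direction, taken here as doxycycline against control. Since neither library values nor fold changes nor p-values are among them, the size of each change, the spread between libraries and the depth are unknown, and the counts below carry no test. Of the whole set, 9077 peaks (14.8%) were lower and 318 (0.518%) higher, and the other 52025 are in neither list. A peak in neither list is one that did not pass the authors' threshold and is not thereby shown to be unchanged. H2A.Z peaks do not measure expression, so the cell type could not be checked by its transcripts. Of 6 stem cell marker genes, 4 had a peak and 0 had a lower one. Of 6 fibroblast marker genes, named as markers of feeder cells, 6 had a lower one. By the same rule 33.4% of all protein-coding genes had a lower peak, and 42.9% of those with any peak. The part of other cells in the results was not tested.

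H2A.Z was lower at 6 of the 9 endoderm factor genes, Foxa2, Sox17, Sox7, Gata4, Gata6 and Onecut1, and higher at 0. At Foxa1, Foxa3 and Hhex every peak within 10 kb was in neither list. Of all protein-coding genes, 33.4% had a lower peak by the same rule, and 42.9% of those with any peak. A higher peak was found at 0.480% of protein-coding genes. Of the 24 peaks at the factors, 10 were lower (41.7%, 95% exact Clopper-Pearson interval 22.1 to 63.4%, which covers counting only), against 19.3% of the 37097 peaks at protein-coding genes. The peaks of 1 gene are not independent of each other, although the interval treats the 24 peaks as if they were. It can therefore not be read as a test against the 19.3%. At 3 of the 9 factors, Gata4, Gata6 and Onecut1, 2 or more peaks were lower, against 10.3% of protein-coding genes. That share also covers genes with fewer than 2 peaks, which cannot be counted. Among the factors only Sox7 and Hhex had fewer than 2, so the comparison is not a like one.

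**Figure D1:**
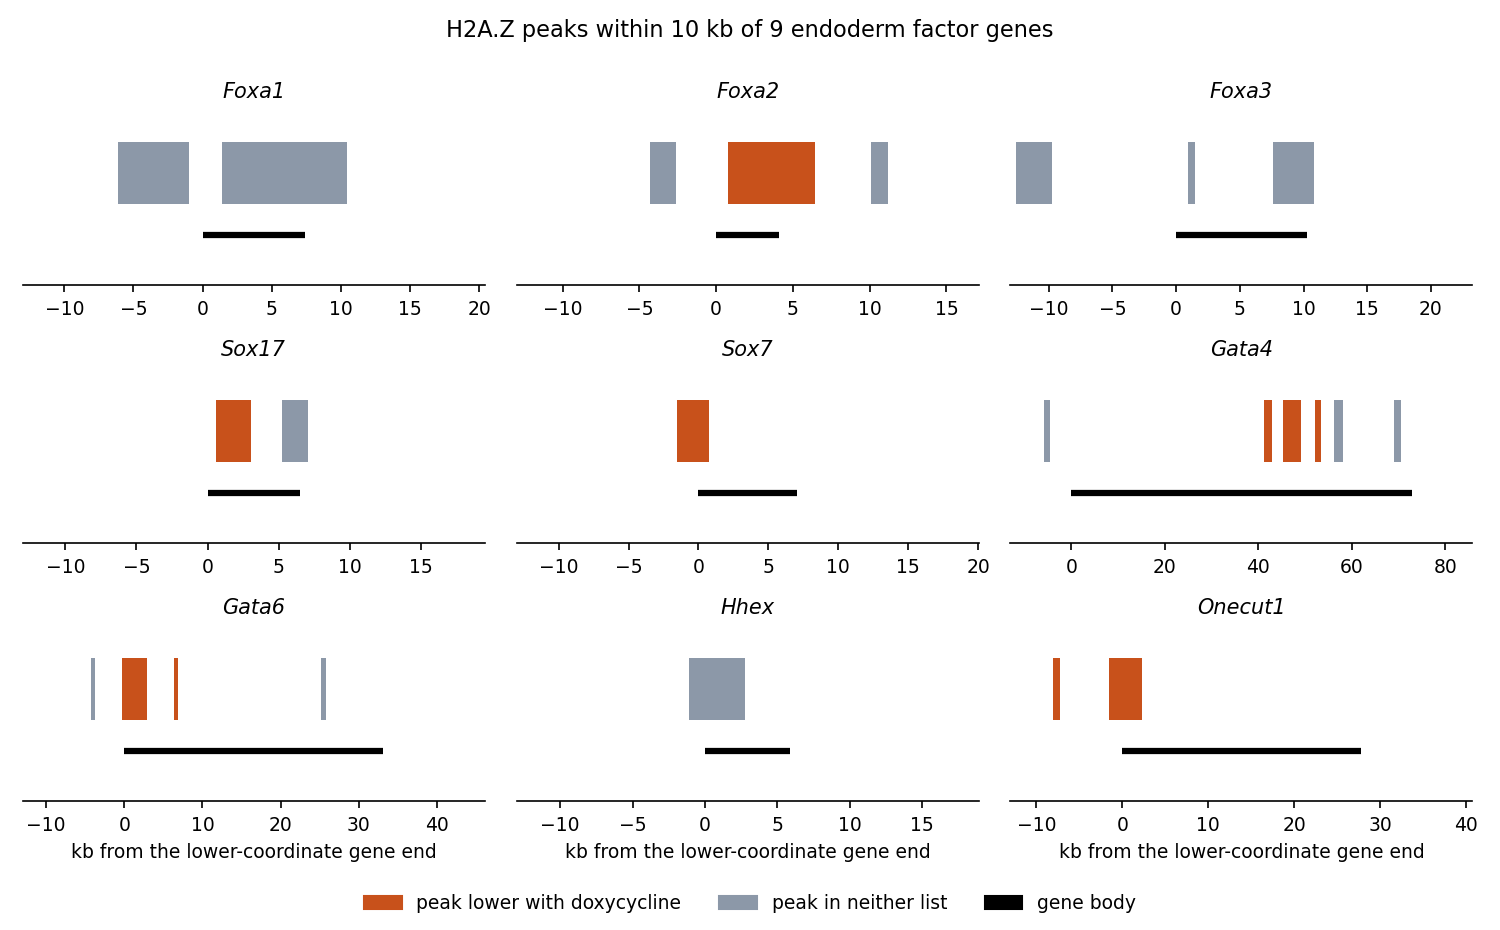
Each panel shows 1 gene, with its body as a black bar, and the H2A.Z peaks within 10 kb as boxes over a horizontal axis in kb from the gene end of lower coordinate. Orange boxes are peaks lower with doxycycline and grey boxes are in neither list. Gata4 holds 3 lower peaks side by side, and Foxa1, Foxa3 and Hhex hold grey peaks only.

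All 9 factors had an H2A.Z peak over the start of the gene as read here. At 5 of them, Foxa2, Sox7, Gata4, Gata6 and Onecut1, this peak was lower. At Foxa1, Foxa3, Sox17 and Hhex the peak over the start was in neither list. For comparison, of protein-coding genes with a RefSeq promoter and a peak over it, 30.1% had a lower peak there, and 15.9% of all those with a RefSeq promoter. The starts of Foxa1, Foxa2, Foxa3, Hhex and Onecut1 are those of RefSeq on GRCm38.p6, and those of Sox17, Sox7 and Gata4 follow from the distances in the authors' table. The start of Gata6 was taken from the order of exons in that table. The Gata4 start lies inside the RefSeq gene, and no peak lay over the outer end of that gene at position 63271712. The Foxa1 start also lies inside its RefSeq gene, but the outer end of that gene, at position 57548029, lay under the same peak as the start. This reading of starts was chosen after the data were seen. For Sox17, Sox7, Gata4 and Gata6 it rests on rows of the lower list itself. The shares over RefSeq promoters are therefore not a like comparison for all 9 factors. Over RefSeq promoters alone, the peak was lower at Foxa2 and Onecut1. It was in neither list at Foxa1, Foxa3 and Hhex.

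Sequences of 250 bases before the start were on hand for 5 of the 9 genes, from RefSeq promoters of GRCm38.p6. Those below, with CpG dinucleotides in capitals, set genes whose start lies under a lower peak (Foxa2 and Onecut1) beside genes whose start lies under a peak in neither list (Hhex and Foxa1). Foxa2 has 3 RefSeq starts, all under 1 lower peak, and the sequences before its outermost and its middle start are shown because they differ in CpG content. The first is chr2:148046970-148047219 and the second chr2:148045949-148046198, both on the minus strand. The Onecut1 sequence is chr9:74861671-74861920 on the plus strand, the Hhex sequence chr19:37434591-37434840 on the plus strand and the Foxa1 sequence chr12:57546112-57546361 on the minus strand.
Foxa2, outermost start: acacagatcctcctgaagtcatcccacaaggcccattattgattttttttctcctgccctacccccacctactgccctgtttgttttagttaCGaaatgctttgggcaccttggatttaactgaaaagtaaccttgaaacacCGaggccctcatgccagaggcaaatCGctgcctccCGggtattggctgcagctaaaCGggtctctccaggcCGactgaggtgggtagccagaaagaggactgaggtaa
Foxa2, middle start: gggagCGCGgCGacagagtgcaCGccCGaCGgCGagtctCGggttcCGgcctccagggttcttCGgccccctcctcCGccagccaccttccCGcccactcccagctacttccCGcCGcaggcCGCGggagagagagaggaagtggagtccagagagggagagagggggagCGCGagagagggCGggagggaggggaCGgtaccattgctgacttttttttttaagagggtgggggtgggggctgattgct
Onecut1: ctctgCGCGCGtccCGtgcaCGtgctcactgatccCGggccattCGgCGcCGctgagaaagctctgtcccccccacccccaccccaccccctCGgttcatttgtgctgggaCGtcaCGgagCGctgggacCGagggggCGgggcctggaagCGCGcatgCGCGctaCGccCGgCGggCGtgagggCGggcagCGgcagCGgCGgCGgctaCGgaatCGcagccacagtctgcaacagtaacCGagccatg
Hhex: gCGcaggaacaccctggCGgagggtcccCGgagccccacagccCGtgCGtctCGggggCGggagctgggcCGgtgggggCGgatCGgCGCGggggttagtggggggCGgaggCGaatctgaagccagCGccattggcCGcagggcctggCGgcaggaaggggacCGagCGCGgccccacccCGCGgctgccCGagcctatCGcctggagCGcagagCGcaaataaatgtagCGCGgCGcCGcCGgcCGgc
Foxa1: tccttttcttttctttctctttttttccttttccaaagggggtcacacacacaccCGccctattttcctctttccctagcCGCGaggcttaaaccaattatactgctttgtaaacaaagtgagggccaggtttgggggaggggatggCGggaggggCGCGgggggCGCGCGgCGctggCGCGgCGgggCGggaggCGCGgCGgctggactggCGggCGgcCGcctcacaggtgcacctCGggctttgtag

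The promoters under lower and other peaks overlapped in composition. The outermost Foxa2 sequence held 6 CpGs and had a GC content of 50.8%, whereas the middle one held 20 CpGs at 67.2% GC and the innermost 13 at 54.4%. Onecut1 held 31 CpGs at 71.6% GC. Among those under a peak in neither list, Hhex held 32 CpGs at 76.0% GC, Foxa1 21 at 62.0% and Foxa3 18 at 68.8%. The median over 21263 such sequences of protein-coding genes was 10 CpGs and 55.6% GC. The ratio of observed to expected CpGs was 0.376, 0.732 and 0.730 at Foxa2 and 0.968 at Onecut1, and it was 0.906 at Hhex, 0.887 at Foxa1 and 0.610 at Foxa3, against a median of 0.530.

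R-loops are known to form more readily where the transcript is rich in G, which can be expressed as GC skew, the excess of G over C divided by their sum on the coding strand. Skew was −0.10, 0.18 and 0.19 before the 3 Foxa2 starts and −0.03 at Onecut1, against 0.12 at Foxa1, 0.15 at Hhex and 0.05 at Foxa3. The median of all sequences was 0.006. The motif GGGG, searched with overlaps allowed, was on the coding strand before 2 of 3 Foxa2 starts and at Onecut1, Foxa1, Foxa3 and Hhex, and in 66.5% of all sequences. Its complement CCCC was before 2 of 3 Foxa2 starts, at Onecut1, Foxa3 and Hhex, and in 65.7% of all. In these sequences, skew and runs of G at Foxa2 and Onecut1 overlapped with those at Foxa1, Foxa3 and Hhex. Each sequence lies before its start, so it is not part of the transcript that begins there. The middle and innermost Foxa2 sequences and the Foxa1 sequence lie inside the RefSeq gene bodies, however. A transcript from a start farther out can therefore include them. With so few genes, and without the sequence after each start, a link between lower H2A.Z and G-rich transcripts was not tested.

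The 3 Foxa genes differed from each other. At Foxa2, needed for node, notochord and definitive endoderm, the peak of 5645 base pairs at chr2:148043676-148049320 was lower. It was annotated by the authors as a promoter peak, its centre lay 471 base pairs from the TSS, and it covered 80.5% of the gene body. The peaks on either side, of 1683 and 1084 base pairs and separated from it by 3.42 and 3.64 kb, were in neither list. At Foxa1, which acts with Foxa2 in liver and lung, 81.3% of the body lay under a peak of 9087 base pairs (chr12:57542011-57551097) in neither list, wider than 99.6% of all peaks. A second Foxa1 peak, of 5152 base pairs and wider than 97.0% of all, lay 0.955 kb beyond the body and was in neither list as well. At Foxa3, the liver forkhead gene, 3 peaks of 2881, 501 and 3200 base pairs were all in neither list. The one of 2881 base pairs lay 9.71 kb outside the Foxa3 body and overlapped another gene, Mypop. The body of Ttc6 starts inside the Foxa1 gene, and Irf2bp1 and Sympk lie 6.52 and 0.838 kb from Foxa3, so the peaks there cannot be given to 1 gene by position alone.

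Lower peaks farther out were nearer to other genes. Within 50 kb, Foxa1 and Foxa3 also had a lower peak. The one 27.8 kb from Foxa1 lay in an exon of Ttc6. Those 20.6 and 41.4 kb from Foxa3 lay in exons of Mypop and Rsph6a, and the authors named the second by the nearest TSS, that of Dmwd, 10.7 kb away. Hhex had 4 peaks within 50 kb and none of them was lower. In this wider window 52.8% of protein-coding genes had a lower peak.

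Gata4 had the most peaks and the most lower peaks of the 9 genes. Its 3 lower peaks, of 1676, 3843 and 1144 base pairs, followed each other from chr14:63240125-63241800 over chr14:63244236-63248078 to chr14:63251135-63252278, with gaps of 2.44 and 3.06 kb. The authors placed the middle one in the promoter, the first in an exon 4.31 kb downstream of the TSS and the last, a CpG island, 6.43 kb upstream of it. The distances of all 3 point to 1 start at position 63245271, which lies inside the RefSeq gene (63198914 to 63271712). The remaining 3 peaks, of 1396, 1892 and 1380 base pairs, were in neither list, among them the one next to the lower run, 2.84 kb away. The peak of 1396 base pairs overlaps the end of Neil2, a DNA glycosylase gene 4.76 kb from Gata4. By counts of lower, higher and other peaks, 28 further protein-coding genes had the same pattern. Those nearest in summed width of lower peaks (6663 base pairs at Gata4) were Tmco4 at 6205, Lif at 7216 and 4930519G04Rik at 5683.

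Gata6, which drives the primitive endoderm fate, had 2 lower peaks that the authors' table gives to another gene name. They measured 3223 and 501 base pairs, at chr18:11052216-11055438 and chr18:11058867-11059367. The table names 1010001N08Rik for both, a synonym of the antisense lncRNA gene Gata6os in RefSeq, with TSS distances of 1.26 and 6.55 kb. It also places them in intron 1 and exon 3 of a transcript that RefSeq assigns to Gata6, and Gata6os overlaps the Gata6 body by 58 base pairs. The wider peak lay over the Gata6 start. A peak of 501 base pairs upstream, 3.49 kb from it, and one of 644 base pairs downstream were in neither list. By gene name the authors' lower list therefore held 0 rows for Gata6, and 7 rows for 5 of the 9 factors (55.6%), against a row for 26.5% of protein-coding genes.

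Sox17 and Sox7, which can act on the same targets in endoderm and vessels, differed in where H2A.Z was lower. At Sox17 a peak of 2409 base pairs at chr1:4491545-4493953 was lower. The authors placed it in a CpG island within an intron, 4.61 kb from the TSS. The Sox17 peak over the start, of 1881 base pairs and 2.19 kb away, was in neither list. At Sox7 the only peak, of 2272 base pairs at chr14:63942165-63944436, was a lower promoter peak centred 0.406 kb upstream of the TSS. Its neighbouring peaks were 81.4 and 102 kb away, and both were lower.

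At Onecut1 both peaks were lower. The wider, of 3751 base pairs at chr9:74860417-74864167, lay over the start and was annotated in the 5′ UTR, 0.371 kb from the TSS. The narrower, of 761 base pairs, lay 7.25 kb outside the body, and the authors classed it as intergenic and gave it to the lncRNA gene Gm16551. In the RefSeq annotation used here both peaks also overlap the lncRNA gene Gm33562, so they cannot be given to Onecut1 alone by position. At Hhex, in contrast, the only peak within 10 kb, of 3861 base pairs at chr19:37433758-37437618, lay over the start and was in neither list.

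**Figure D2:**
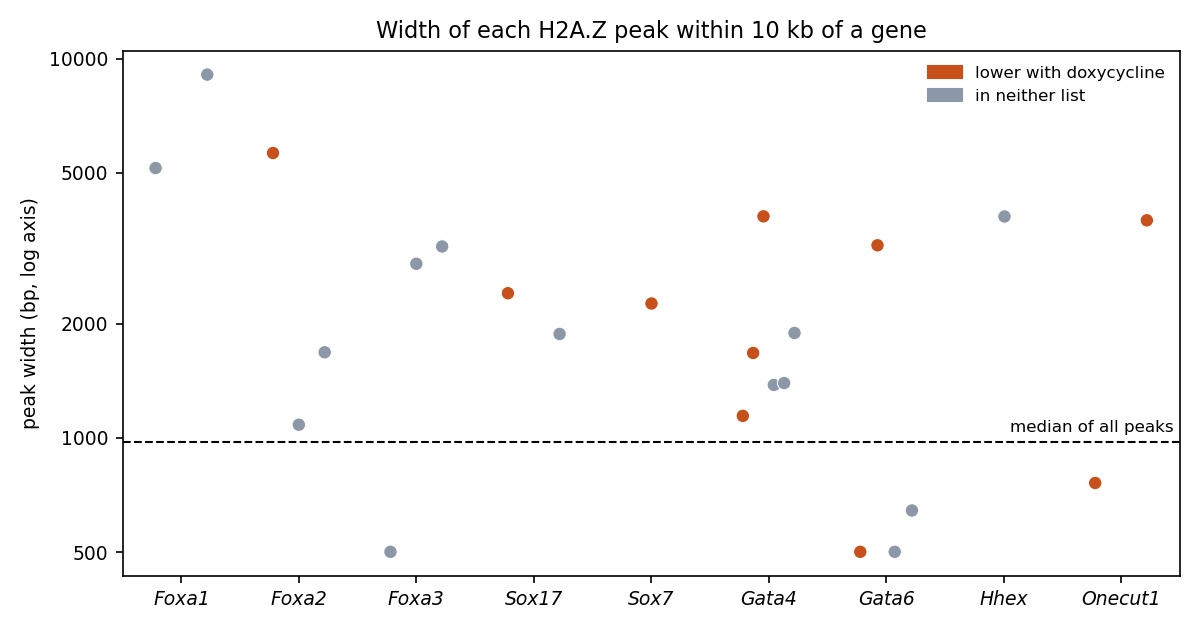
Each point is 1 H2A.Z peak within 10 kb of the gene named on the horizontal axis, with its width in base pairs on a log axis. Orange points are lower with doxycycline, grey points are in neither list, and the dashed line is the median of all 61420 peaks, 977 base pairs. Lower points run from 501 to 5645 base pairs and grey points from 501 to 9087.

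Peaks over the starts of the factors were wide, between 1881 and 9087 base pairs. The 10 lower peaks had a median width of 2340 base pairs and the 14 others 1782, with ranges that overlap. The widest 2 of the 24 peaks were Foxa1 at 9087 and Foxa2 at 5645 base pairs, and the Foxa1 peak was in neither list. In the whole set, 7.53% of peaks of 5000 base pairs or more were lower, and 5.69% of those of 8000 or more. Of the protein-coding genes with a peak of at least 3000 base pairs over a RefSeq promoter, 22.8% had it lower. These width limits were chosen after the values were seen.

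Lower peaks at the factors often had a lower peak as their nearest neighbour, in 6 of 10 cases, against 29.6% of all lower peaks. In 5 of the 6, at Gata4, Gata6 and Onecut1, that neighbour was a peak of the same gene, and only at Sox7, where it lay 81.4 kb away, was it not. At Gata4 and at Gata6 a pair of lower peaks was counted from both sides, so the cases are not independent. Only the Foxa2 and Sox17 lower peaks had a peak in neither list on both sides. Of the 7 rows that name a factor in the authors' lower list, 3 were classed by the authors as promoter peaks, 1 each as 5′ UTR, exon, intron and intergenic, and all lay within 10 kb of the TSS. In the whole list 18.9% were promoter peaks and 58.0% lay within 10 kb. A CpG island was named for 2 of the 7 rows, the intron and the intergenic one, and for 7.92% of the list. For the other rows that name a factor, the authors' detailed label only repeats the class. It therefore does not show whether those peaks lie in a CpG island.

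The share of genes with a lower peak differed with the number of peaks at the gene. Of protein-coding genes with exactly 1 peak, 25.7% had it lower, and Sox7 was such a gene while Hhex was not. Of those with 2 peaks 42.3% had a lower one, as Sox17 and Onecut1 did and Foxa1 did not. Of those with 3 peaks the share was 51.4%, and Foxa2 had one and Foxa3 did not. Gata6 with 4 peaks and Gata4 with 6 stood beside shares of 58.6 and 59.2%, and genes with 5 peaks, of which none was a factor, at 62.0%.

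**Figure D3:**
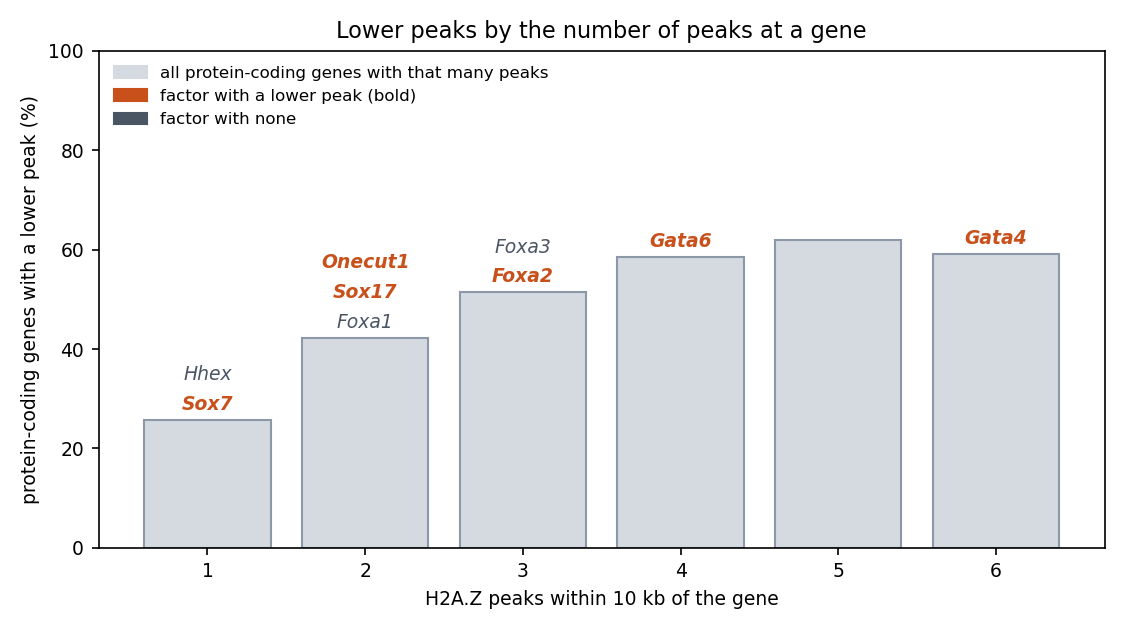
Bars give the share of protein-coding genes (in percent) with at least 1 lower H2A.Z peak, by the number of peaks within 10 kb on the horizontal axis. The factors are written over the bar of their number of peaks, in bold orange if they have a lower peak and in grey if not. The bars stand at 25.7% for 1 peak, 58.6% for 4, 62.0% for 5 and 59.2% for 6.

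Genes around these factors in the endoderm programme were described by the same rule. Of 63 genes in 4 lists, 32 (50.8%) had a lower peak and 0 a higher one, and 20.7% of their peaks were lower. Of all protein-coding genes, 33.4% had a lower peak and 0.480% a higher one. Of the peaks at protein-coding genes 19.3% were lower, a share near that of the 4 lists. Among 20 liver, pancreas and gut factors 12 had a lower peak, led in summed width by Onecut3, a relative of Onecut1 (5390 base pairs), the motor neuron and pancreas gene Mnx1 (4744), the hindgut gene Cdx2 (4216), the pancreas gene Ptf1a (4131) and the lung and thyroid gene Nkx2-1 (3671). Pdx1, the pancreas homeobox gene, had 2 lower peaks of 3, whereas Prox1 and Sox9 had 2 peaks each and none lower. Among 18 primitive and visceral endoderm genes 10 had one, among them the receptor gene Pdgfra, a primitive endoderm marker (4209), Amn (2916), the apolipoprotein gene Apoa1 (2552) and the collagen IV gene Col4a1 (2305), whose lower peak also lies within 10 kb of Col4a2. Among 12 mesendoderm and anterior endoderm genes 6 had one, led by the organizer gene Gsc (4398), the Wnt antagonist gene Frzb (2627), T (2551), Shisa2 (2199) and Otx2 (2072). Among 13 genes of Nodal signalling, which induces endoderm, 4 had one, the receptor gene Acvr1b (4451), Smad3 (2839), Foxh1 (890) and Gdf1 (501). Nodal itself, Tdgf1 and Lefty1 had 2, 2 and 3 peaks, none of them lower.

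Lists of other lineage factors stood at similar shares to the endoderm factors. A lower peak was found at 10 of 15 primitive streak and mesoderm factors, led by Foxc1, Foxc2, Tbx1, Foxf1 and T, and at 10 of 15 neural factors, led by Msx1, Irx3, Irx5, Sox1 and Dlx1. Of 14 relatives from the GATA, SOX, ONECUT and forkhead families 10 had one, led by Foxj1, Gata2, Onecut3, Sox18 and Foxb1. Of 13 pluripotency genes 2 had one, Tbx3 and Nr0b1. These differences were not tested, and several genes stand in more than 1 list. By the same rule 33.4% of all protein-coding genes had a lower peak, and 19.3% of the peaks at them were lower. By share of peaks the order was 41.7% at the endoderm factors, 38.9% at the neural factors, 33.3% at the streak and mesoderm factors, 28.3% at the relatives and 9.09% at the pluripotency genes.

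**Figure D4:**
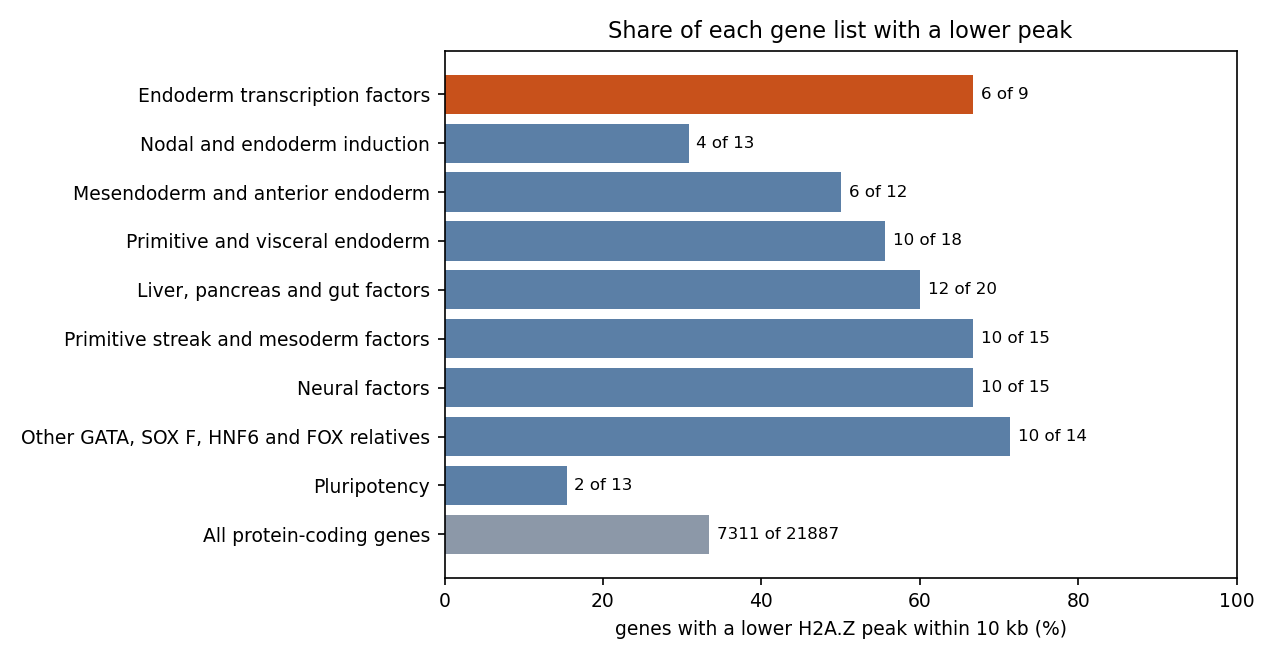
Bars give the share of genes (in percent) with at least 1 lower H2A.Z peak within 10 kb, for the 9 endoderm factors at the top, for 8 other gene lists and for all protein-coding genes at the bottom, with the counts at the bar ends. The endoderm factors stand at 66.7%, the primitive streak and the neural factors at 66.7% each and all protein-coding genes at 33.4%.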

How the data were processed

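Of 56 CUT&Tag libraries of 10 targets, IgG included, the 8 for H2A.Z were used, and the other 48 are not analysed here. The submitters' processing notes name the build GRCm38 and the tools Bowtie2, deepTools, HOMER, Picard and Trimmomatic. The sources used here do not give what each did, the peak caller, the test and threshold behind the lists or any pooling of replicates. Per the file headers, the authors annotated the lists with HOMER annotatePeaks on mm10. The peak score they deposited is 0 in every row and was not used. The distance to the TSS, a signed score in base pairs, was used as the authors deposited it. No depth per library is known.

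Each row of the lists matched 1 peak of the set exactly. Starts are printed counting from 1. Gene bodies are from RefSeq (GRCm38.p6), where all 9 members and all listed genes matched by symbol, and RefSeq promoters gave strand for 5 members. Members and lists were chosen with earlier results of these data known. All members are named, and of each other list up to 5 genes with a lower peak by summed width, while others (Pdx1, Prox1, Sox9, Nodal, Tdgf1 and Lefty1) were chosen after their values were seen. Of the genes that the rule names, 1 is not reported here. Shares are counts without a test. Gene assignment was tested on simulated data. The tools were pandas 2.3.3, numpy 2.4.6, SciPy 1.17.1 and matplotlib 3.10.9 under Python 3.11.15.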

Additional observations from a re-analysis of the deposited data

How the results depend on the processing

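The count of factors with a lower peak was 6 with windows of 0, 1, 5 and 10 kb, by peak centre, with at least 50% of the peak inside and without peaks of the minimum width, and these were the same genes. It was 8 within 50 kb, 5 when peaks went to the nearest gene, where Onecut1 left the count, and 5 by the authors' gene names, where Gata6 left it. The wider lower peak of Onecut1 is centred inside the Onecut1 body but also overlaps Gm33562. In the nearest-gene setting, ties went to the gene with the lower start coordinate. The share of lower peaks at the factors ran from 28.9% (50 kb) to 52.9% (gene body only), and the count of factors with a higher peak was 0 in each setting. Other endoderm genes with a lower peak ran from 26 to 40 of 63 and the like lists from 26 to 36 of 57. The rule for promoters moved the result most. A lower peak over a RefSeq promoter or, without one, within 1 kb of a gene end was found at 5 factors, among them Sox17, whose lower peak is near the far end of the gene. By peak centre within 1 kb of a gene end it was 3 (Foxa2, Sox7 and Onecut1), by the promoter class of the authors' annotation it was 3 (Foxa2, Sox7 and Gata4), and by a peak over the start, added after the data were seen, it was 5. The rows that name a factor were 7 with or without a limit of 10 kb, and the median width percentile of the lower peaks was 83.6 among all and 87.6 among lower peaks. No paired analysis was possible because the files hold no value per library, and for the same reason no replicate could be left out.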
